A study of Oryza sativa with 16 samples.

Results

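Low nitrogen was examined in roots of water-stressed seedlings of the rice genotype Nagina 22 (N22), by setting the dual-stress library (N-W-) against the library grown at high nitrogen under the same water stress (N+W-). The comparison took every gene that reached at least 1 CPM (reads per 1000000 exon reads of the scaled library) in either library, which was 22597 of the 37849 genes in the files. A gene could pass through the library where it was high. N22 is an aus rice that is widely used as a drought-tolerant parent.

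The seedlings of both libraries were 21 days old, stood in pots of vermiculite and perlite, received ammonium nitrate as their only nitrogen source, and had water withheld in part from day 15 to day 21 (10 mL a day, against 100 mL for plants that were not stressed). They therefore share genotype, tissue, age and water stress, and nitrogen supply is the labelled difference. The labels give an age of 15 days for the plants with ample water, whose libraries are used below. On that account every comparison between water levels is also one between ages, and the 2 cannot be told apart. The growth protocol of the labels gives 0.4 mM ammonium nitrate for nitrogen stress and 0.08 mM otherwise, an order that runs against the names of the groups, and the study's methods give other concentrations, water volumes and plant ages, so groups are named by treatment only and the volumes and ages here are those of the labels. RNA from 3 biological replications was pooled before sequencing, which left 1 library a side. The difference between these 2 libraries has no replicate check, and their spread between plants is unknown.

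Roots take up nitrate through low-affinity carriers of the NRT1 family and through high-affinity carriers of the NRT2 family, whose activity depends on the small partner protein NAR2, and they take up ammonium through AMT proteins. Nitrate is reduced by nitrate and nitrite reductase, and the ammonium is built into glutamine by glutamine synthetase. Plants short of nitrogen also recover it from urea and from the purine product allantoin. In dry soil, abscisic acid (ABA) switches on dehydrins and other late embryogenesis abundant (LEA) proteins, which protect membranes and proteins in drying cells.

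The 8 root libraries of the series held between 8272195 exon reads, in the N22 N-W- library, and 13675454, and the N22 N+W- library held 9643294. Uniquely mapped reads made up 83.6% of the exon reads in the N-W- library and 83.2% in the N+W- library. Per 1000000 exon reads before scaling, a list of 7 root markers summed to 1928 CPM in the N-W- library and 4081 CPM in the N+W- library, and all 7 were read in both, against 24.6 to 219 CPM over the shoot libraries. A list of 34 green-shoot markers summed to 71.4 CPM in N-W- and 134.5 CPM in N+W-, against 23514 CPM or more in each shoot library. On scaled reads, 7 shoot meristem and young stem markers, OSH15 among them, summed to 58.3 CPM in N22 N-W- and 39.1 CPM in N22 N+W- roots, but to 226 CPM in IR64 N-W- and 62.2 CPM in IR64 N+W- roots, where 3 of 5 tested markers were over the fold rule upwards. The IR64 N-W- library was the highest of the 8 root libraries in this list, and its part in the joint test and the IR64 values was not tested. In bulk roots, fewer cells of a type and less RNA per cell cannot be told apart.

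Across the tested genes, 1390 genes differed by more than 2 on the log2 scale, which is 4-fold (6.15%, the fold rule). Of these, 533 were higher (2.36%) and 857 were lower (3.79%) in N-W- roots. Reads carry counting error, and for 598 of the 1390 genes (2.65%) the exact 95% interval of the ratio lay wholly beyond 4-fold, 198 of them higher (0.876%) and 400 lower (1.77%). Genes were thus over the rule more often downwards, and only 38.3% were higher in N-W- roots. The lower genes took 0.573% of the exon reads in the N-W- library and 5.28% in the N+W- library, while the higher genes took 2.67% and 0.498% in the same order. No read at all was found in N+W- roots for 117 of the higher genes, and in N-W- roots for 184 of the lower genes. The genes nearest the limit were OsRLCK188 on the inner side, with 17 reads in N-W- and 85 in N+W-, and Os02g0815900 on the outer side, with 34 reads in N-W- and 10 in N+W-.

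**Figure D1:**
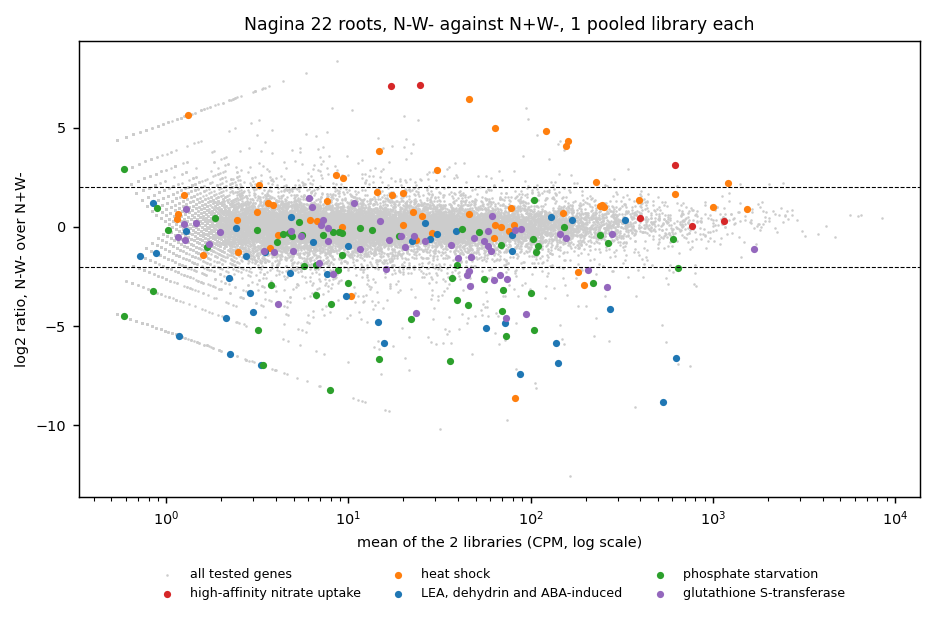
Each point is a gene tested in N22 roots, placed by its mean CPM over the 2 libraries (log axis) and by its log2 ratio of N-W- over N+W-, with members of 5 gene lists in colour and the fold rule of 2 as horizontal lines. Genes of phosphate starvation and the LEA list lie mostly below 0, the high-affinity nitrate genes lie above it, and heat shock genes lie on both sides, from -8.63 to 6.45.

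Gene models that overlap on the chromosome bear on many of these ratios. A model overlapping another made up 28.2% of all tested genes, 52.5% of the higher genes and 42.6% of the lower genes, and the use of strand in counting is not given in the sources used here. With the reads of a gene and of every overlapping model added together, 335 of the 533 higher genes and 658 of the 857 lower genes stayed over the rule. OscpSRP43 (38 reads in N-W- and 0 in N+W-), OsEXO70G1, OsCDPK5 and OsGELP39 were among the 12 highest named genes and came to log2 ratios of 0.85, 0.83, 0.61 and 0.16 over the summed models. OsLAX5, which had 0 reads in N-W- and 107 in N+W-, came to -0.56. These genes are not described further, and overlaps that matter are given beside the genes below.

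Because the pair has no replicates, 2 tests that share its libraries were read beside it. The joint test asked which genes differed between N-W- and N+W- roots on average over N22 and IR64, a high-yielding indica variety, in an edgeR quasi-likelihood fit over the 8 root libraries. It called 289 genes up (1.19%) and 311 down (1.28%) of 24285 tested at a Benjamini-Hochberg adjusted p under 0.05, and all adjusted p-values below without another name come from it. The N22 pair is part of this contrast, so a shared direction is partly built in. Of the genes called up, 280 were higher in the N22 pair and 109 were over the fold rule there. Of those called down, 307 were lower in the N22 pair and 186 were over the rule. The count rested on single libraries: it fell to 274 without the N22 N-W- library and to 246 without N22 N+W-, and to 164 and 154 without the IR64 libraries of the same treatments. Without the N22 or the IR64 N+W+ library it fell to 320 or 333.

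The second test took the 4 root libraries of N22, at both water levels and, by the labels, both ages. It asked for a nitrogen effect within N22 alone. It left 1 residual degree of freedom and called 24 genes (0.11%), 3 of them up (0.0137%) and 21 down (0.096%). All 24 were over the fold rule in the same direction in the low-water pair, whose libraries the test holds. The genes called up were OsNAR2.2, OsALN and the unnamed Os06g0210000, with 393 reads in N-W- and 11 in N+W- roots. Those called down included NRT1.1B, OsUPS1, OsIPS1, DIP3, the chitinase gene Cht9, the tryptophan decarboxylase genes TDC1 and OsTDC3, OsSub2, whose name is that of a subtilisin-like protease, and OsStr7, named as a sulfurtransferase. Some others called down had few uniquely mapped reads, among them Os04g0308500 and Os10g0113201 with 0% and Os04g0308400 with 0.5%. Os10g0113201 overlaps Os10g0113100, which was called too, so the 24 calls are not all separate measurements. With DESeq2 the same question gave 629 genes, and 2675 genes had an unadjusted p under 0.05. Genes of these tests that are named below without being among the genes the naming rule gives, OsSub2, OsStr7, DIP3 and Os06g0210000 included, were chosen after their values were seen.

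Genes for high-affinity nitrate uptake were higher in N-W- roots, and those that differed most were nearly silent at high nitrogen. NRT2.4 (Os01g0547600), a high-affinity nitrate transporter, had 409 reads in N-W- and 3 in N+W- roots, a log2 ratio of 7.14 (95% counting interval 5.83 to 9.67), and rose in the joint test (log2 6.91 ± 0.446 SE, adjusted p = 0.00143). OsNAR2.2 (Os04g0480200), named as a partner protein of the transporters, had 284 reads in N-W- and 2 in N+W- roots (log2 7.09, interval 5.58 to 10.49) and also rose (joint log2 7.31, adjusted p = 0.00143). It was called in N22 alone as well (edgeR adjusted p = 0.0393). NRT2.3 (Os01g0704100), which loads nitrate into the xylem in rice, was already abundant at high nitrogen, with 9243 reads in N-W- and 1284 in N+W- (log2 3.14), and its joint adjusted p was 0.0692.

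The other members of this list differed little between the N22 libraries. NRT2.1 had 3804 reads in N-W- and 3462 in N+W- roots (log2 0.43), and NRT2.2 had 10652 and 10589 in the same order (log2 0.30). These genes are near-identical copies, and only 10.4% and 4.3% of their reads mapped uniquely. NAR2.1, the partner protein both need, had 6443 reads in N-W- and 7758 in N+W- (log2 0.02, interval -0.02 to 0.07). In IR64 at low water the same genes had log2 ratios of 3.69, 3.37 and 2.47, and in N22 with ample water 2.32, 1.84 and 1.95. All 6 members were over the rule in IR64 at low water, 4 in N22 with ample water and 3 here, all higher (5.27%, 2.34% and 2.36% of all genes). For none of them was the genotype-by-nitrogen or nitrogen-by-water term called. The first term averages over the water levels and the second over the genotypes. Neither therefore tests a difference confined to N22 at low water.

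**Figure D2:**
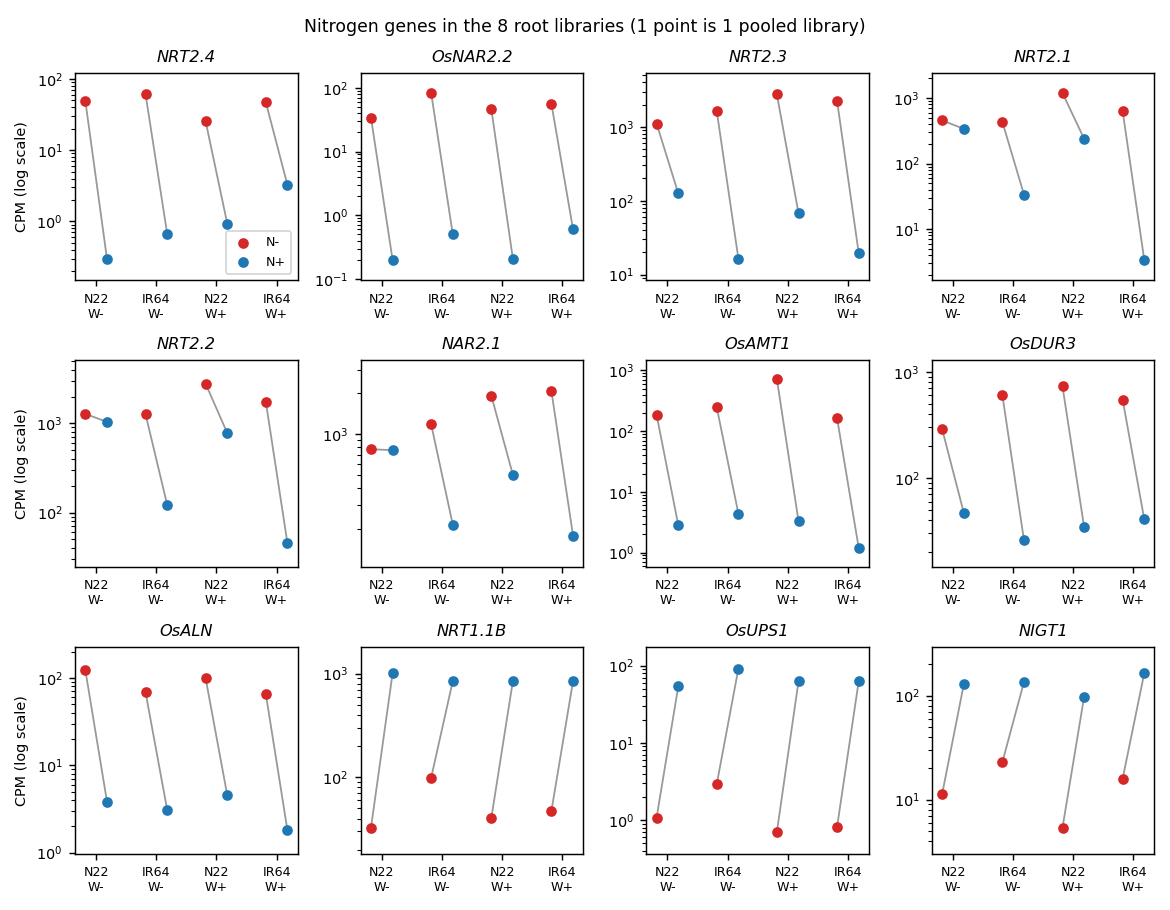
Each panel is a gene of nitrogen transport, recovery or regulation, with its CPM (log axis) in the 8 root libraries, given as 4 pairs of low nitrogen beside high nitrogen: N22 at low water, IR64 at low water, N22 with ample water and IR64 with ample water. OsALN, OsAMT1 and OsNAR2.2 are higher at low nitrogen in every pair, OsUPS1 and NRT1.1B are lower in every pair, and the genes NRT2.1 and NAR2.1 are nearly level in the N22 low-water pair.

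Among 9 tested ammonium transporter genes, 1 was over the rule, upwards (2.36% of all genes). OsAMT1 (Os02g0620500), a member of the high-affinity AMT1 subfamily, had 1551 reads in N-W- and 29 in N+W- roots (log2 6.01, interval 5.50 to 6.62), and it rose in the joint test (adjusted p = 0.0252). Only 6.6% of its reads mapped uniquely and 1 other model overlaps it, and the models together had a log2 ratio of 4.58. OsAMT2_1 fell in the joint test (adjusted p = 0.0341), with 19 reads in N-W- and 75 in N+W-. AMT1_2 and AMT1_1 were level here, at log2 ratios of -0.02 and -0.01, against 1.14 and 1.90 in IR64 at low water.

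Low-affinity nitrate and peptide transporter genes moved in both directions, with 1 of 19 tested members over the rule higher (2.36% of all genes) and 3 lower (3.79%). NRT1.1B (Os10g0554200), a nitrate transporter that also senses nitrate in rice roots, had 272 reads in N-W- and 10362 in N+W- roots, a log2 ratio of -4.96 with an interval of -5.14 to -4.79. It fell in the joint test (log2 -3.91 ± 0.495 SE, adjusted p = 0.0136) and in N22 alone (edgeR adjusted p = 0.044). OsNRT1.3A rose, with 1878 reads in N-W- and 470 in N+W- (log2 2.29, adjusted p = 0.0284). OsNRT1.5B had 9 reads in N-W- and 222 in N+W- (log2 -4.27), but it was higher at low nitrogen in IR64 at low water (log2 1.00) and in N22 with ample water (1.68). OsPTR3_2 had 4 reads in N-W- and 49 in N+W-.

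Genes of ureide and urea recovery differed in both directions, with 2 of 7 over the rule higher and 1 lower (median log2 -0.02). Of all genes 2.36% were higher and 3.79% lower. OsALN (Os04g0680400), allantoinase, which opens the ring of allantoin, had 1015 reads in N-W- and 39 in N+W- roots (log2 4.97, interval 4.53 to 5.49). It rose jointly by 4.74 ± 0.311 SE (adjusted p = 0.00143) and in N22 alone (edgeR adjusted p = 0.044). OsDUR3 (Os10g0580400), the high-affinity urea transporter, had 2390 reads in N-W- and 476 in N+W- (log2 2.62) and rose (adjusted p = 0.0194), as did OsAAH, allantoate amidohydrolase, with 2644 and 1301 reads in the same order (adjusted p = 0.0473). OsUPS1 (Os12g0503000), a ureide permease that carries allantoin, went the other way, with 9 reads in N-W- and 549 in N+W- (log2 -5.57, joint adjusted p = 0.00263). OsUPS, OsUGlyAH and OsUAH, which act on the same products, had ratios between -0.36 and -0.02.

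Assimilation genes were mostly lower in N-W- roots. Of 13 tested members none was higher by the rule and 3 were lower (3.79% of all genes). The median log2 ratio was -1.08 beside -0.01 over all tested genes. OsNIA1, a nitrate reductase, had 1503 reads in N-W- and 6671 in N+W- roots (log2 -1.86), and NiR, nitrite reductase, had 2682 and 6919 in the same order (log2 -1.08, or -1.68 with its overlapping model). The glutamine synthetase gene OsGS1_2 had 31 reads in N-W- and 352 in N+W- (log2 -3.19), GLN1 had 652 and 2896 (log2 -1.86), and OsGS1_1 had 2680 and 2838 (log2 0.21). None of these was called in the joint test, and in IR64 at low water their ratios lay between -0.83 and 0.91. The member the joint test called was ASN, an asparagine synthetase, which rose, with 487 reads in N-W- and 191 in N+W- (log2 1.64, adjusted p = 0.0255), while its relative ASN1 had 488 and 1924 reads (log2 -1.69, adjusted p = 0.213).

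Regulators of the nitrogen response included 4 of 10 tested members over the rule, all lower (3.79% of all genes). NIGT1 (Os02g0325600), a repressor that nitrate induces, had 95 reads in N-W- and 1319 in N+W- roots (log2 -3.50) and fell (adjusted p = 0.0118), and OsACTPK2, a protein kinase of the ACT-domain group, had 1 and 48 reads and fell (adjusted p = 0.0173). Its relative OsACTPK1, which acts on ammonium uptake in rice, had 0 reads in N-W- and 217 in N+W-, at least 59.1-fold lower against a floor of 3 counts in the N-W- library. TOND1, a gene for tolerance of nitrogen deficiency, had 0 and 21 reads, at least 5.72-fold lower. OsLBD38, a transcription factor of the LBD family, rose, with 2180 reads in N-W- and 1149 in N+W- (log2 1.22, adjusted p = 0.0305). OsACTPK1 and TOND1 had joint adjusted p-values of 0.0813 and 0.0606. In the other pairs 4 of 10 members were lower in IR64 at low water (5.54% of all genes) and 3 of 9 in N22 with ample water (5.61%).

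The phosphate starvation list was lower in N-W- roots, from signalling RNAs to transporters and phosphatases. Of 58 tested members 24 were lower by the rule (41.4%, against 3.79% of all genes) and 1 was higher, 52 lay below 0, and the median log2 ratio was -1.16. The joint test called 17 of 60 down and none up, beside 1.28% down and 1.19% up of all genes. OsIPS1 (Os03g0146800), a non-coding RNA that sequesters a phosphate-response microRNA, had 2 reads in N-W- and 298 in N+W- roots (log2 -6.64, interval -9.98 to -5.06) and fell by 5.96 in the joint test (adjusted p = 0.00143). Its relative OsIPS2 had 1 and 64 reads and fell too (adjusted p = 0.00488).

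SPX proteins, which sense the phosphate state of the cell, were mostly lower, but OsSPX-MFS1 was the list's only member over the rule upwards, with 9 reads in N-W- and 1 in N+W- roots (log2 2.90, interval 0.61 to 8.92). OsSPX3 had 0 reads in N-W- and 162 in N+W- roots, at least 44.1-fold lower, although another model overlaps it and the models together had a log2 ratio of -4.33. OsSPX-MFS2, an SPX protein with a transporter domain, had 0 and 69 reads, at least 18.8-fold lower, and fell in the joint test (adjusted p = 0.0252). OsSPX5 and OsSPX1 fell as well, with 14 and 130 reads in N-W- against 434 and 975 in N+W- (adjusted p = 0.0063 and 0.0121). OsSPX6 had 26 reads in N-W- and 1472 in N+W-, with an adjusted p of 0.0638.

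Among the phosphate transporter genes, PT10 had 5 reads in N-W- and 730 in N+W- roots (log2 -6.77), PT4 had 46 and 2065 (log2 -5.18), PT6 had 149 and 1860 (log2 -3.35), and the abundant PT8 had 2045 and 10690 (log2 -2.09). With overlapping models summed, PT10 came to -4.67 and PT4 to -4.78. The joint test called PT4 and PT6 (adjusted p = 0.024 and 0.0185), and not PT10 or PT8 (0.122 and 0.0926). Purple acid phosphatases, which release phosphate in the soil and the cell wall, followed: OsPAP10a had 116 reads in N-W- and 1295 in N+W-, and OsPAP10c had 89 and 648, each with an adjusted p of 0.00578. SQD2.2, which makes sulfolipid in place of phospholipid, had 58 and 1359 reads (log2 -4.25, adjusted p = 0.0063). The list was lower in the other pairs too, with 21 of 57 tested members lower in IR64 at low water (5.54% of all genes there). In N22 with ample water 21 of 56 were lower (5.61%).

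Genes for other minerals were over the rule at shares near the 2.36% higher and 3.79% lower of all genes, or in 1 member. Of 46 iron acquisition genes 2 were higher and 3 lower, of 24 potassium transport genes 1 was lower, and of 15 sulfate genes 1 was lower. OsRMC, a receptor-like protein that affects iron acquisition and root curling, had 15 reads in N-W- and 670 in N+W- roots (log2 -5.15) and fell (adjusted p = 0.0121), and NRAMP4, a metal transporter, had 60 and 376 reads and fell (adjusted p = 0.0379). OsNAS1, a nicotianamine synthase of the iron pathway, was the reverse, with 27649 reads in N-W- and 7496 in N+W- (log2 2.17). At ample water it was lower at low nitrogen in N22 (log2 -1.79), as in IR64 at low water (log2 -0.74).

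Of the gene lists, heat shock had the most members over the rule upwards. Of 55 tested members 13 were higher (23.6%, against 2.36% of all genes) and 4 were lower, and the median log2 ratio was 0.92. The joint test called 10 of the 55 up and none down, beside 1.19% up and 1.28% down of all genes. HSfA2a (Os03g0745000), a heat shock transcription factor, had 755 reads in N-W- and 10 in N+W- roots (log2 6.45, interval 5.64 to 7.6), against 3 and 21 reads in the N22 libraries with ample water, and its joint adjusted p was 0.105. HSFB2A, a class B factor, had 1036 reads in N-W- and 39 in N+W- (log2 5.0) and rose (adjusted p = 0.0121), and 1 overlapping model brings its ratio to 4.00 when summed. HSfA6 had 22 and 0 reads, at least 8.98-fold higher, and rose (adjusted p = 0.0474).

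Further members were among those called jointly. HSFB2B had 1959 reads in N-W- and 85 in N+W- roots (log2 4.81), and OsHsfA6a had 2547 and 153 (log2 4.34). OsHsp24.1, a small heat shock protein, had 2462 and 177 (log2 4.09), and OsHsp71.1, an HSP70 chaperone, had 16656 and 4372 (log2 2.22). All 4 rose in the joint test, with adjusted p-values of 0.0206, 0.00792, 0.0194 and 0.0152. OsDjC53, a DnaJ co-chaperone outside the list, had 317 reads in N-W- and 23 in N+W- and rose (log2 4.04, adjusted p = 0.00343). In N22 with ample water the ratios of HSFB2B, OsHsfA6a, OsHsp24.1, OsHsp71.1 and OsDjC53 lay between -1.79 and -0.14, and HSFB2A was at 0.03. Other members called jointly, HSfA6, HSFC1A and HSFB1, were higher at low nitrogen there too (log2 2.34, 1.22 and 0.78).

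The 4 heat shock genes over the rule downwards were Oshsp16.9A, Oshsp16.9B, Oshsp17.9A and HSP70_1, of which the first 3 are small heat shock proteins of the cytosol. Oshsp16.9A had 3 reads in N-W- and 1674 in N+W- roots (log2 -8.63, interval -11.11 to -7.28), with 31.1% of its reads mapped uniquely, and HSP70_1 had 379 and 3559 (log2 -2.94). In IR64 at low water Oshsp16.9A and HSP70_1 had ratios of 0.02 and 0.07. Of 55 heat shock genes tested in IR64 at low water, 12 were higher and 2 lower (median 0.75), beside 5.27% higher and 5.54% lower of all genes. Of 56 tested in N22 with ample water, 4 were higher and 2 lower (median -0.04), beside 2.34% higher and 5.61% lower of all genes.

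LEA, dehydrin and ABA-induced genes went the opposite way to most heat shock genes. Of 40 tested members 20 were lower by the rule (3.79% of all genes), none was higher, and 34 lay below 0. The median log2 ratio was -1.89. The joint test called 10 of 38 down (1.28% of all genes) and none up. Rab16A (Os11g0454300), a dehydrin, had 19 reads in N-W- and 10909 in N+W- roots (log2 -8.84, interval -9.61 to -8.23). In N22 with ample water it had 2256 reads at low nitrogen and 1631 at high nitrogen. In the joint test its adjusted p was 0.0792.

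Its neighbours on chromosome 11, RAB21_1 and RAB21_2, are dehydrin genes that the list does not hold. RAB21_1 had 94 reads in N-W- and 15132 in N+W- roots (log2 -7.03) and RAB21_2 had 11 and 7624 (log2 -9.09), and both fell (adjusted p = 0.0122 and 0.0481). OsLEA25 had 8 and 1768 reads (log2 -7.42) and fell by 7.44 in the joint test (adjusted p = 0.00663). Lea14A had 20 and 2872 reads (log2 -6.84), but only 0.1% of them mapped uniquely and its joint adjusted p was 0.0623. OsLEA3-1, a LEA protein used as a drought marker, had 240 and 5244 reads (log2 -4.16, adjusted p = 0.0496), and AWPM-19, an ABA-induced membrane protein, had 39 and 2746 (log2 -5.83, adjusted p = 0.0234).

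The list was lower in IR64 at low water as well, where 14 of 35 members were lower (5.54% of all genes) and none higher (median -1.63). In N22 with ample water 5 of 34 were lower (5.61% of all genes) and 1 was higher (median -0.98). DIP3, a further member with 106 reads in N-W- and 12649 in N+W- roots (log2 -6.60, adjusted p = 0.0121), was about as low in the other pairs, at -9.75 in IR64 at low water and -6.93 in N22 with ample water. Rab16A, AWPM-19 and RAB21_2, in contrast, had ratios of 0.24, 0.40 and -0.81 in N22 with ample water, where the labels give the plants an age of 15 days. The study's methods give another age, and on the labels' account water supply and age cannot be told apart.

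Unlike the LEA genes, neither genes of ABA synthesis and breakdown nor protein phosphatase 2C genes were mostly lower. No list of ABA signalling genes as such was examined. Of 8 tested genes of ABA synthesis and breakdown 1 was higher by the rule and none lower (median -0.06). OSNCED3, a 9-cis-epoxycarotenoid dioxygenase of the rate-limiting step of ABA synthesis, had 19063 reads in N-W- and 5289 in N+W- roots (log2 2.14) and rose (adjusted p = 0.0378), with 16.3% of its reads mapped uniquely. Of 63 tested protein phosphatase 2C genes, some of which hold ABA signalling in check, 3 were higher and 1 lower by the rule. Of all genes 2.36% were higher and 3.79% lower. Of the 3, OsPP2C37 had 187 reads in N-W- and 48 in N+W-, and OsPP2C01 had 9 and 2. OsPP2C69 came to a log2 ratio of 0.98 with its overlapping model summed. OsPP2C30 had 1621 reads in N-W- and 583 in N+W-, and OsPP2C06/OsABI2 had 1865 and 1001, and the joint test called these 2 up (adjusted p = 0.0464 and 0.0496).

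Aquaporins, the water channels of the plasma membrane and the vacuole, were lower in N-W- roots. Of 34 tested genes 7 were lower by the rule (3.79% of all genes) and none was higher, with a median of -0.68. The joint test called 4 of 35 down (1.28% of all genes). OsPIP2_4 had 88 reads in N-W- and 1053 in N+W- roots (log2 -3.28, adjusted p = 0.00578), and OsPIP2_6 had 18 and 118 (log2 -2.39, adjusted p = 0.0063). The vacuolar OsTIP1_1 had 344 and 1949 reads (log2 -2.21, adjusted p = 0.0259). OsPIP1_1 had 2208 and 13510 reads (log2 -2.32), with an adjusted p of 0.0626. At low water 8 of 35 members were lower in IR64 (5.54% of all genes), and with ample water 9 of 34 were lower in N22 (5.61% of all genes).

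**Figure D3:**
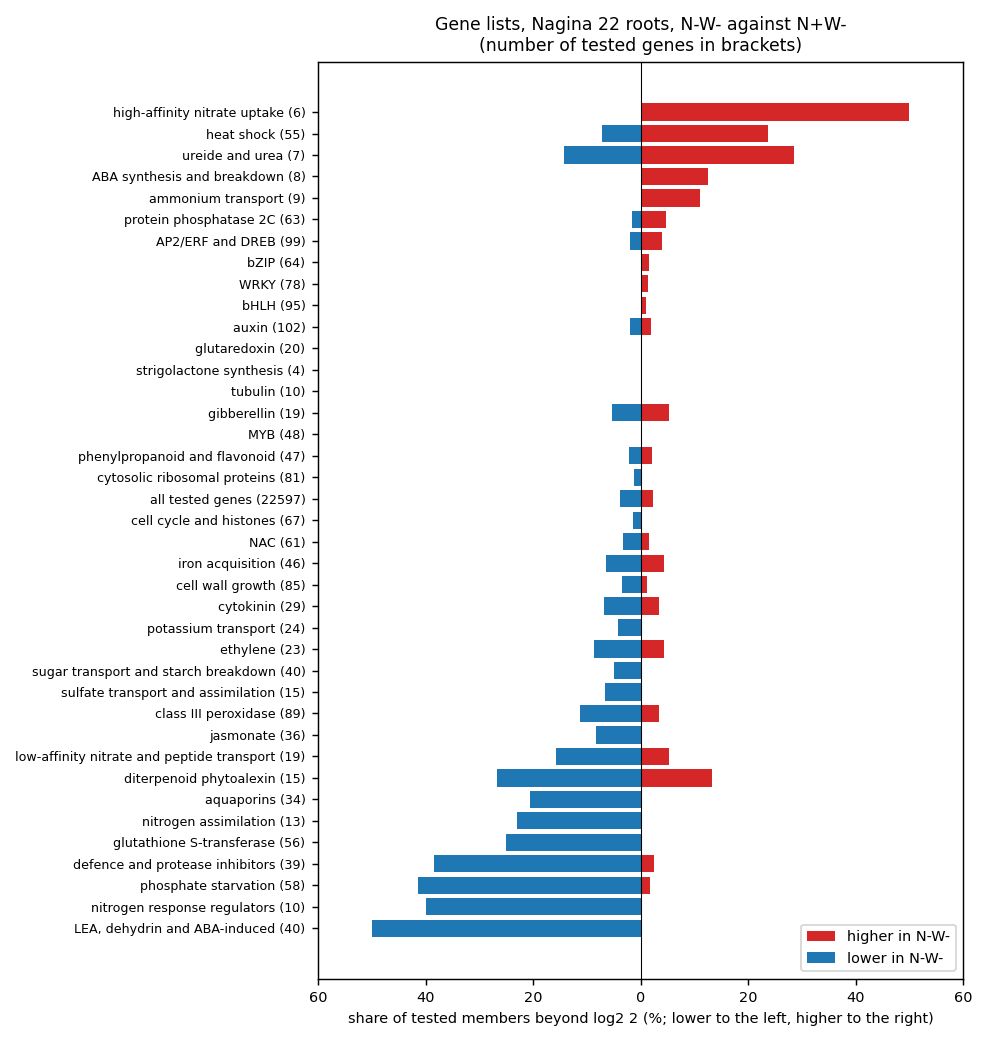
For each gene list, bars give the percent of its tested members that were over the fold rule higher (to the right) or lower (to the left) in N22 N-W- roots against N+W- roots and the same shares over all tested genes (2.36% higher, 3.79% lower) in a row of their own. LEA genes (20 of 40 lower), phosphate starvation genes (41.4% lower) and high-affinity nitrate genes (3 of 6 higher) reach farthest.

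Glutathione S-transferases, which attach glutathione to reactive or foreign molecules, were lower in 14 of 56 tested members (3.79% of all genes) and higher in none (median -0.71). OsGSTU41 had 48 reads in N-W- and 1436 in N+W- roots (log2 -4.60, adjusted p = 0.00213), and OsGSTU26 had 70 and 1834 (log2 -4.41, adjusted p = 0.0813). The joint test called 4 of 58 members down (1.28% of all genes), of which OsGSTU3 was the most abundant, with 626 and 3472 reads (adjusted p = 0.0247). Class III peroxidases, secreted enzymes that act on hydrogen peroxide and the cell wall, had 10 of 89 members lower (3.79% of all genes) and 3 higher (2.36%). prx72 had 1337 reads in N-W- and 9666 in N+W- (log2 -2.56, adjusted p = 0.0218), and prx54 had 1712 and 9593 (log2 -2.19, adjusted p = 0.012). In IR64 at low water 15 of 60 transferases and 19 of 96 peroxidases were lower (5.54% of all genes), and 1 and 8 were higher (5.27%). In N22 with ample water 16 of 58 and 26 of 92 were lower (5.61%), and 2 and 1 were higher (2.34%).

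Defence genes (pathogenesis-related proteins, chitinases and protease inhibitors) were lower in 15 of 39 tested members (3.79% of all genes) and higher in 1, with a median of -1.0. The joint test called 7 of 44 down (1.28% of all genes) and none up. OsPR1#101, a PR-1 protein, had 161 reads in N-W- and 11034 in N+W- roots (log2 -5.80, adjusted p = 0.0291), and PR1A had 9 and 392 (log2 -5.08, adjusted p = 0.0063). OsPR4b, a chitin-binding PR-4 protein, had 0 and 140 reads, at least 38.1-fold lower, with an adjusted p of 0.121. Cht9, a chitinase, had 9 and 1681 reads (log2 -7.18) and fell in N22 alone (edgeR adjusted p = 0.0393). The list was also lower in the other pairs, with 14 of 46 tested members in IR64 at low water (5.54% of all genes) and 22 of 37 in N22 with ample water (5.61%).

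TDC1 and OsTDC3 encode tryptophan decarboxylase, the first step from tryptophan to serotonin. TDC1 had 6 reads in N-W- and 2177 in N+W- roots (log2 -8.11), and OsTDC3 had 7 and 2137 (log2 -7.87). With ample water the N22 ratios were -7.21 and -8.16, and both genes fell in N22 alone (edgeR adjusted p = 0.0393 each). In IR64 the ratios were -0.73 and -0.76 at low water. In IR64 with ample water TDC1 had a ratio of -8.2, and OsTDC3 had 0 reads at low nitrogen and 667 at high nitrogen, at least 395.5-fold lower. Neither the genotype-by-nitrogen nor the nitrogen-by-water term was called for these genes, and neither term tests a difference confined to IR64 at low water.

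Diterpenoid phytoalexin genes, which make the antimicrobial momilactones and related compounds, differed in direction between the pairs of libraries. In N22 roots 4 of 15 tested members were lower (3.79% of all genes) and 2 higher (2.36%), with a median of -1.62. In IR64 at low water 12 of 20 were higher and none was lower (median 4.55, with 5.27% of all genes higher). With ample water 7 of 11 were lower in N22 and none was higher (median -3.66, with 5.61% of all genes lower), and in IR64 12 of 18 were lower and 1 was higher (median -3.44, with 5.07% of all genes lower and 2.54% higher). The IR64 low-water pair was thus the one with members mostly upwards. OsMAS, momilactone A synthase, had 62 reads in N-W- and 311 in N+W- roots of N22 (log2 -2.03) and 255 and 101 in IR64 (log2 1.59). CYP76M1, a cytochrome P450 named in the same list, was higher in both, with 581 reads in N-W- and 75 in N+W- (log2 3.24 in N22, 4.52 in IR64), and rose (adjusted p = 0.00663). No genotype-by-nitrogen term was called for any gene of the 24285 tested (edgeR, 555 genes at an unadjusted p under 0.05, DESeq2 20 genes). That term averages over both water levels, and over these no difference between genotypes was shown for single genes. It cannot decide whether the genotypes differed at low water alone, which was not tested.

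**Figure D4:**
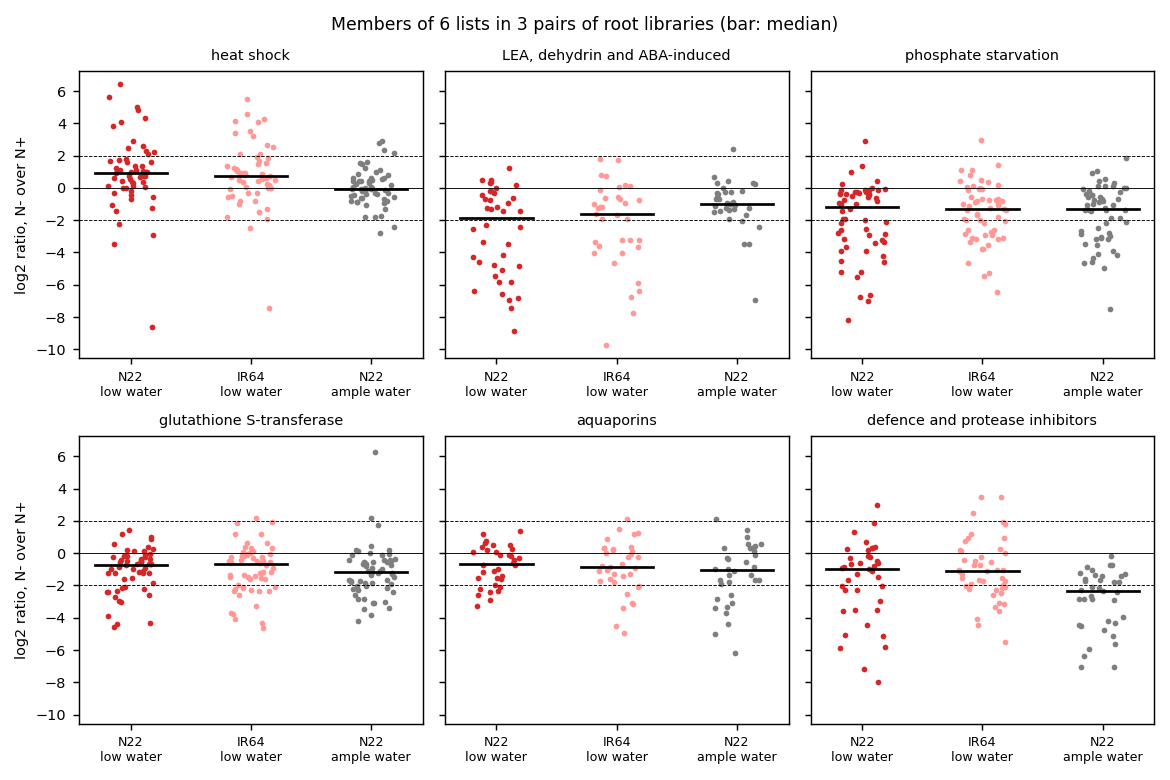
Points are members of 6 gene lists, with their log2 ratio of low over high nitrogen in N22 roots at low water, IR64 roots at low water and N22 roots with ample water, and a bar at the median. The heat shock medians are 0.92, 0.75 and -0.04, the LEA medians -1.89, -1.63 and -0.98, and the phosphate medians -1.16, -1.34 and -1.31.

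Transcription factor families had few members over the rule, beside 2.36% higher and 3.79% lower of all genes. WRKY genes had 1 of 78 higher, AP2/ERF genes 4 of 99 higher and 2 lower, NAC genes 1 of 61 higher and 2 lower, bZIP genes 1 of 64 higher, bHLH genes 1 of 95 higher, and MYB genes 0 of 48. The joint test called 8 of 100 AP2/ERF genes up and none down, beside 1.19% up and 1.28% down of all genes. ERF92 had 1398 reads in N-W- and 145 in N+W- roots (log2 3.56) and rose by 3.99 ± 0.342 SE (adjusted p = 0.00402), and it was also higher in N22 with ample water (log2 3.74). NAC5, a stress-induced NAC factor, had 8583 and 2509 reads (log2 2.07, adjusted p = 0.0287).

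Hormone genes other than those of ABA had few members over the rule, beside 2.36% higher and 3.79% lower of all genes. Jasmonate genes had 3 of 36 lower and none higher, and ethylene genes 1 of 23 higher and 2 lower. Auxin genes had 2 of 102 each way, cytokinin genes 1 of 29 higher and 2 lower, and gibberellin genes 1 of 19 each way. OsGA2ox7, a gibberellin 2-oxidase that inactivates gibberellin, had 62 reads in N-W- and 2 in N+W- roots (log2 4.91, interval 3.33 to 8.32) and rose (adjusted p = 0.0227). ACO7, an ACC oxidase of ethylene synthesis, had 102 and 22 reads and rose (log2 2.48, adjusted p = 0.0281), while ACO4 had 1173 and 6511 (log2 -2.18, adjusted p = 0.339). AOS4 and LOX-3 of jasmonate synthesis were lower, but with overlapping models summed their ratios of -2.17 and -2.13 became -1.28 and -1.88. OsOPR5, of the same list, had 24 reads in N-W- and 242 in N+W- (log2 -3.02, or -2.95 with its overlapping model). The joint test called AOS4 and LOX-3 down (adjusted p = 0.0148 and 0.0416), and not OsOPR5. Among sugar genes, OsSWEET12, a sugar efflux carrier, had 0 reads in N-W- and 91 in N+W-, at least 24.8-fold lower, and SUS4, a sucrose synthase, had 55 and 1109 (log2 -4.03). Neither was called jointly, with adjusted p-values of 0.0521 and 0.169, and in N22 with ample water their ratios were 1.62 and 0.39.

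Growth and housekeeping lists lay near the level of all genes. Of 81 tested cytosolic ribosomal protein genes 1 was lower and none higher (median -0.31, with 67 below 0), of 67 cell cycle and histone genes 1 was lower, of 85 cell wall growth genes 3 were lower and 1 higher, and none of 10 tubulin genes was over the rule. None of 20 glutaredoxin genes and none of 4 strigolactone synthesis genes was over it either.

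Genes over the rule also stood side by side on the chromosomes. In 29 places, 3 or more neighbouring tested genes were over the rule in the same direction, 27 of them lower with 97 genes and 2 higher with 7 genes. Several held copies of a gene family. The dehydrins RAB21_1, RAB21_2, RAB16B and Rab16A filled chromosome 11 from 15320288 to 15343671 (IRGSP-1.0), with ratios of -7.03, -9.09, -5.08 and -8.84. A run of 6 germin-like genes, GLP8-3 to GLP8-11, filled chromosome 8 from 5222230 to 5265340, and GLP8-3, GLP8-4 and GLP8-7 of them fell (adjusted p = 0.0362, 0.0421 and 0.0281). Glutathione S-transferases made 2 runs on chromosome 10, one of OsGSTU19, OsGSTU20 and OsGSTU12 from 20488627 to 20499096 and another from 20551209 to 20560614.

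Further runs held the PR-4 genes (chromosome 11, 22498563 to 22507412), the thionins OsTHI3, Osthi4 and OsTHI5 (chromosome 6, 18524688 to 18579297), and the phosphate transporters PT9 and PT10 with OsLEA3 and overlapping models (chromosome 6, 12665605 to 12694849). The thionins share nearly all their reads, with at most 1.2% mapped uniquely. The run from Os04g0178400 to Os04g0180500 on chromosome 4 (5332365 to 5486703) holds OsMAS and CYP99A2 of momilactone synthesis, and its 5 genes were lower in N22 but had ratios of 1.15 to 5.49 in IR64 at low water. Overlapping models lay on 36 of the 97 genes in lower runs and 5 of the 7 in higher runs, so some neighbours are not separate measurements.

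The 2 higher runs were shorter. OsLPR4, OsLPR3, Os01g0127100 and OsLPR5 filled chromosome 1 from 1486400 to 1500606, and the LPR genes are named after Arabidopsis oxidases that act in the root response to low phosphate. OsLPR4 had 537 reads in N-W- and 120 in N+W- roots (log2 2.45) and rose (adjusted p = 0.042), and OsLPR5 had 979 and 229 (log2 2.39, adjusted p = 0.444). In N22 with ample water OsLPR4 and OsLPR5 had ratios of -0.95 and -2.08. OsLPR3 and Os01g0127100 overlap each other, and summed they had a ratio of 5.02. The other run holds HSFB2A with 2 unnamed models. Os04g0568751 overlaps HSFB2A, and Os04g0568600 came to 1.73 with its own overlapping model, so this run does not hold 3 separate genes over the rule. Of 6 genes of these runs tested in IR64 at low water 3 were over the rule upwards there, and none was in N22 with ample water.

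**Figure D5:**
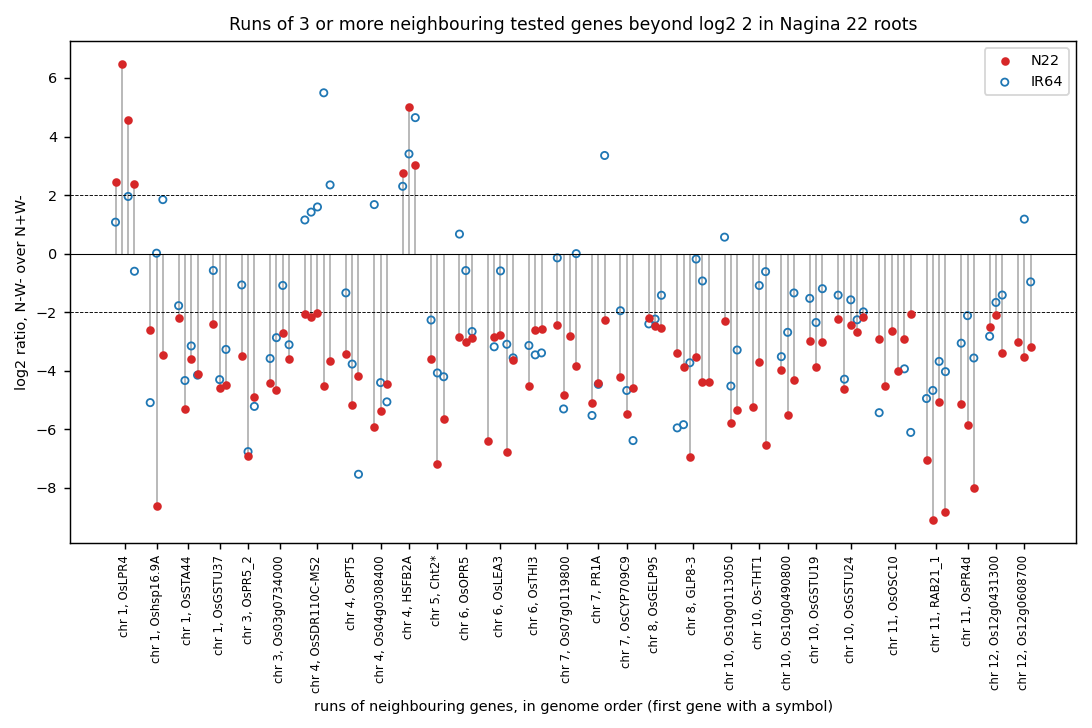
The 29 runs of neighbouring genes stand in chromosome order along the x axis, with the log2 ratio of each gene in N22 roots at low water as a filled point and in IR64 roots at low water as an open circle, where it was tested. Of the 97 genes in lower runs 81 had a ratio below 0 in IR64 too, counted whether or not they were tested there (89 were). The momilactone run on chromosome 4 lies above 0 in IR64.

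The lower genes with the smallest joint p stood at high levels at high nitrogen. OsLP (Os03g0663400) had 89 reads in N-W- and 13081 in N+W- roots (log2 -6.90, interval -7.22 to -6.61) and fell by 6.82 ± 0.309 SE (adjusted p = 0.000582). OsLTPd6, named as a lipid transfer protein, had 153 and 4462 reads (log2 -4.57, adjusted p = 0.00143). The unnamed Os09g0438100 had 18 and 807 reads and Os11g0241200 had 75 and 2883, and both were called jointly (adjusted p = 0.00143 and 0.00169) and in N22 alone (edgeR adjusted p = 0.0393 each). Os01g0644500, with 134 and 2 reads, was among the joint calls upwards, but its overlapping model brings the ratio of 6.01 (interval 4.48 to 9.42) to 1.13.

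Some of the lowest ratios belonged to genes without a read in N-W- roots. OsUCL31, a uclacyanin-like copper protein, had 0 reads in N-W- and 646 in N+W- roots, at least 175.9-fold lower, but 67 and 34 reads in the ample-water libraries, and 0 and 5 in IR64 at low water. OsXIP, a xylanase inhibitor, had 0 and 94 reads here and 1 read in each of the N22 libraries with ample water. The unnamed Os02g0257200 had 0 and 3359 reads, at least 914.5-fold lower, and 443 and 329 with ample water, and it fell in the joint test (adjusted p = 0.0325). A model overlaps it, and both together had a ratio of -10.13.

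Pairs that share no library with this one gave the same direction for most of these genes, to a different extent. Of all genes, 10.8% were over the rule in IR64 at low water, 7.95% in N22 with ample water and 7.61% in IR64 with ample water. Of the 533 higher genes, 398 were tested in IR64 at low water, where 301 had the same sign (75.6%) and 167 were over the rule in the same direction (42.0% of those tested, and 13.5% of the 1237 genes higher there), while 35 were over it in the opposite direction. Of the 857 lower genes, 720 were tested there, 564 had the same sign (78.3%) and 315 were over the rule (43.8%, and 24.2% of 1300), with 43 opposite. Over all genes tested in both pairs, 65.0% had the same sign.

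The ample-water pairs were set beside the same genes. Of 373 higher genes tested in N22, 244 had the same sign (65.4%) and 97 were over the rule in the same direction (26.0%, and 18.4% of the 528 genes higher there), with 34 opposite. Of 724 lower genes tested, 597 had the same sign (82.5%) and 332 were over the rule (45.9%, and 26.2% of 1265), with 26 opposite. Over all genes tested in both pairs 60.5% had the same sign, and of the higher genes whose interval lay beyond 4-fold 58.9% did. In IR64 with ample water 230 of 393 higher genes had the same sign (58.5%), 69 were over the rule in the same direction (17.6%, and 11.6% of 593) and 46 in the opposite one. Of 693 lower genes 499 had the same sign there (72.0%), 256 were over the rule (36.9%, and 21.6% of 1186) and 32 were opposite, and over all genes 52.6% had the same sign. A nitrogen-by-water term over both genotypes was called for 1 gene of 24285 (edgeR, 0.00412%, 2857 genes at an unadjusted p under 0.05, DESeq2 476 genes), so differences between the water levels are given as values and not as tested differences.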

How the data were processed

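Count values were deposited by the authors as total exon reads per gene, made by mapping paired-end TruSeq reads, trimmed with sickle, to the rice genome (IRGSP-1.0 per the labels) in CLC Genomics Workbench. RPKM values deposited by the authors beside them, per kilobase of exon and mapped reads, served as an alternative only. How reads on several places or on overlapping models were assigned is not given in the sources used here.

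Reads were scaled by TMM over the 8 root libraries (edgeR 4.0.16, R 4.3.3). The N22 N-W- and N+W- libraries were compared by the log2 ratio of scaled reads with a prior count of 0.5, with exact 95% intervals (Clopper-Pearson) that cover counting error only. Genes without a read in 1 library were set against a floor of 3 counts in that library. The pair has 1 library a side, so no p-value was computed for it. The joint test, the N22 test and the nitrogen-by-water and genotype-by-nitrogen terms were edgeR quasi-likelihood tests with Benjamini-Hochberg adjustment, with 3, 1, 3 and 2 residual degrees of freedom, and each pooled library was the unit. The SE given with a joint log2 change was derived from the test, as the size of the change over the square root of its F value. DESeq2 1.42.0, library totals, other filters, unique and gene reads, and libraries left out were alternatives. The methods were tested on simulated data.

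Members and the 42 gene lists, 4 of them of markers, were chosen with earlier results of these data known. Lists were matched by symbol, and 6 genes whose symbol matched but names another protein were left out after values were seen. Named genes were the 12 highest and 12 lowest with a symbol and 3 without one each way (interval beyond 4-fold), up to 4 of each list by size, all nitrogen genes, the 5 smallest joint p-values each way, and genes in runs of 3 or more. Outside that rule, and chosen after their values were seen, were SQD2.2, OsPAP10a, OsPAP10c, OsIPS2, OsSPX1, OsSPX5, OsSPX6, PT6, PT8, OsTIP1_1, OsPIP1_1, OsHsp24.1, OsHsp71.1, HSFB2B, OsHsfA6a, Oshsp17.9A, HSP70_1, OsPP2C30, OsPP2C06/OsABI2, prx54, DIP3, OsSPX-MFS1, HSFC1A, HSFB1, AWPM-19, OsLEA3-1, OsSub2, OsStr7 and Os06g0210000.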

Additional observations from a re-analysis of the deposited data

Results flagged for a closer look

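Named genes over the fold rule in opposite directions in 2 pairs of root libraries were picked out. With 1 library a side, none of these differences was tested. Between N22 and IR64 roots at low water, with the N22 log2 ratio of N-W- over N+W- given before that of IR64, the nitrate and peptide transporter gene OsPTR3_2 had -3.19 and 2.98, OsFRDL4 of the iron list had 2.1 and -4.19, and the xyloglucan-modifying OsXTH22 had 3.13 and -5.55. OsF3H-1, named as a flavanone hydroxylase, had -2.28 and 4.9, and OSH15, a homeobox gene, had -2.28 and 3.35. OSH15 is 1 of the shoot meristem and young stem markers, which as a list summed to 226 CPM in the IR64 N-W- library, the highest of the root libraries. The diterpenoid genes CYP99A2 and OsKSL10 had -4.51 and 5.49, and -3.9 and 4.99, and Os04g0180500 beside CYP99A2 had -3.67 and 2.35. H3, a histone gene, had -4.39 and 5.86, with 0 and 11 reads in N22, and overlapping models. CYP99A2 had 0 and 12 reads in N22, so these ratios rest on few reads.

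Between low and ample water in N22, the low-water ratio being given first, HSfA2a had 6.45 and -2.82, OsLPR3 had 6.49 and -4.97, OsLPR5 had 2.39 and -2.08, and OsCCR5, named as a cinnamoyl-CoA reductase, had 3.18 and -3.24. OsLPR3 had 40 reads in N-W- and 0 in N+W- roots, 17.5% of them mapped uniquely, and with the overlapping Os01g0127100 summed its ratio was 5.02, or 4.05 on unique reads alone. The nitrogen-by-water term over both genotypes was called for Os12g0212100 alone (log2 14.46, edgeR adjusted p = 0.00581), which had at most 2 reads in each N22 root library and was not tested in the N22 pair.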

How the results depend on the processing

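No paired analysis was possible because each group held 1 pooled library. Of 1390 genes over the fold rule, other rules left 674 (at least 5 CPM), 3455 (no filter), 296 (deposited RPKM with a pseudocount of 1) and 598 (interval wholly beyond 4-fold), and the share higher in N-W- roots was 30.6%, 45.6% and 19.3% in the first 3, against 38.3%. With overlapping models summed, an alternative chosen after seeing the data, 1025 genes were over the rule, and the ratios of Os01g0680100, Os05g0318166 and H3 turned to -0.48, -0.33 and 0.78. Scaling by library totals moved the median by -0.07 and gave 1457 genes. The 600 joint calls became 1840 with DESeq2, 1029 with unique reads and 188 with the low-water libraries alone, and 154 to 656 with a library left out. The 24 N22 calls became 154 with library totals, 629 with DESeq2, 521 without a filter, 70 with unique reads and 55 with gene reads. The nitrogen-by-water term gave 476, 57, 88 and 0 genes with DESeq2, no filter, unique reads and gene reads, and 0 to 40 with a library left out. The genotype-by-nitrogen term gave 20 with DESeq2, 2 without a filter and 0 to 2 with a library left out. All 78 named genes called jointly were called by DESeq2 in the same direction, and 42 of them with the low-water libraries alone. The cause of these shifts was not tested. Depth limits genes near the 1 CPM minimum most.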
